A study of Mus musculus with 8 samples.

Results

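Motile cilia of the airway are moved by the axoneme, a bundle of microtubule doublets around a central pair. Dynein arms attached to the doublets pull neighbouring doublets past each other, and radial spokes, the central apparatus and the links between doublets turn that sliding into a regular beat. In the lung the axoneme is built by multiciliated epithelial cells, which sweep mucus out of the airway. The genes described here are those in the count table whose symbol begins with Dnah, Dnai, Dnal, Dnaaf, Cfap, Rsph, Drc or Tekt, together with Hydin, Spag6l, Spag16, Spag17 and Tppp3. The rule itself uses gene names alone and no measured difference between groups, but the members were chosen with earlier results of these data known. It found 73 of the 13265 genes in the table, and 70 of them had at least 30 unique molecular identifiers (UMIs, each counted as 1 captured transcript) over all libraries and were tested among 12661 genes. The other 3 were Cfap47 with 22 UMIs, Cfap77 with 19 and Rsph3b with 18, and the tested genes nearest to that limit were Rsph3a with 43 and Tekt5 with 49.

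The RNA came from EpCAM+ CD31- CD45- epithelial cells sorted from the lungs of female C57BL/6 mice, which the methods of the study place at 10 to 14 weeks of age. The column names label every library wt, for wild-type. The 5 PBS mice inhaled aerosolized phosphate-buffered saline. The 3 LPS mice inhaled the same buffer carrying lipopolysaccharide (LPS), a bacterial endotoxin, at 0.5 mg/ml, to model chronic lung inflammation. Sessions lasted 30 min, with 3 a week for 10 weeks, and the lungs were collected 48 h later. Each library was made from 10000 cells of 1 mouse by bulk MARS-seq, which counts UMIs at the 3′ end of transcripts. The libraries held 2232727 to 2890560 UMIs in PBS mice (s1, s2, s6, s11 and s16) and 2739340 to 4445431 in LPS mice (s4, s14 and s18). Values are TMM-normalized counts scaled to a common library total (CPM), and 3 UMIs correspond to 0.675 to 1.34 CPM. The 3′ counts do not follow transcript length. Each test compares 1 gene between mice and not 1 gene with another.

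PBS library s6 stood apart for these genes. It was the lowest of the 8 libraries for 66 of the 70 axoneme genes, against 19.8% of all genes tested. At the median gene its level was 35.0% of the mean of the other 4 PBS libraries. The median log2 fold changes over all axoneme genes and over each role are therefore also given without s6. So are values of single genes where leaving it out ended or made a call or moved the value by a large factor. In the same library the summed alveolar type II markers stood at 216848 CPM, within the range of 153376 to 226083 CPM of the other PBS libraries. The summed club cell markers, 23694 CPM in s6, were also within the range of 21816 to 73369 CPM of the other PBS libraries, and 5 of the 9 markers were lowest in s6. The low level in s6 was not limited to cilia genes. Summed goblet cell, fibroblast and mesothelial markers were also lowest of the 8 libraries in s6, at 209, 787 and 183 CPM. At the median goblet, basal and mesothelial marker, s6 was at 31%, 35% and 38% of the other PBS libraries, against 95% over all genes. What the dissociation or the sort of that mouse contributed was not tested.

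As a whole, the axoneme genes lay above PBS in the LPS libraries, but few of them passed the test singly. Their summed UMIs were 0.695%, 0.549%, 0.225%, 0.477% and 0.507% of the library in s1, s2, s6, s11 and s16, and 0.883%, 0.999% and 0.813% in s4, s14 and s18. Every LPS library was above every PBS library, with a mean of 0.898% ± 0.0939 (SD, n = 3) against 0.491% ± 0.170 (SD, n = 5), a ratio of 1.83. With each library left out in turn, the LPS mean minus the PBS mean was 0.342 to 0.459 percentage points, lowest without s6. Tppp3 alone took 24.7% to 29.2% of the axoneme UMIs of a library. Without it the means were 0.647% ± 0.0798 (SD, n = 3) in LPS and 0.361% ± 0.130 (SD, n = 5) in PBS mice. In RNA from a sorted population, more ciliated cells and more of these transcripts per cell cannot be told apart.

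The log2 fold change of LPS over PBS was positive for 69 of the 70 genes, against 47.3% of all genes tested, and its median was 0.77 (quartiles 0.59 and 0.92) against -0.02 over all genes. For 39 of the 70 the lowest LPS library was above the highest PBS library, against 8.52% of all genes, and for 0 it was the reverse (5.86% of all genes). In edgeR's quasi-likelihood test, 49 were higher at an unadjusted p under 0.05 (10.4% of all genes) and 0 were lower (7.64%). After adjustment over all genes only Cfap45 was called higher (1.46% of all genes were) and 0 were called lower (0.569%). DESeq2 called 12 higher (2.91% of all genes), namely Cfap43, Cfap45, Cfap52, Cfap53, Cfap100, Cfap157, Cfap410, Dnaaf1, Dnaic1, Dnaic2, Rsph9 and Tppp3, and 0 lower (1.5%). Limma-voom called 0 of the 70 higher (1.38% of all genes) and 0 lower. The genes come from the same libraries and cells, so that their shared direction is not a set of independent results.

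**Figure D1:**
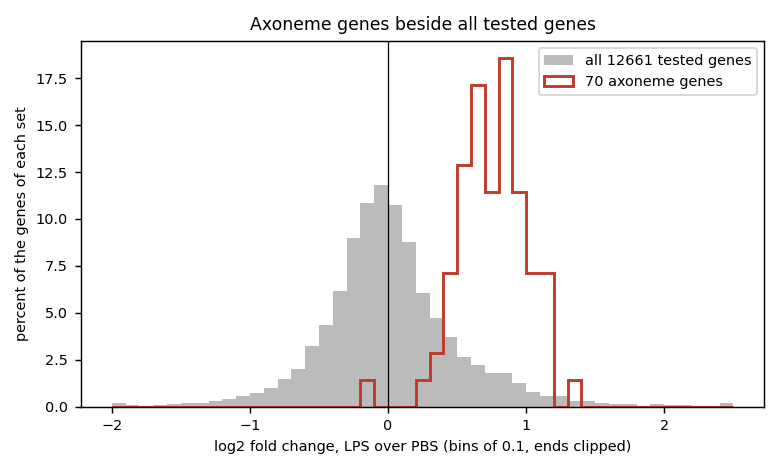
Distribution of the log2 fold change of LPS over PBS for the 70 axoneme genes and for all 12661 genes tested. The axoneme genes are centred on a median of 0.77 and all genes on -0.02, and a single axoneme gene lies below 0.

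Leaving out s6 lowered the differences and narrowed the spread among PBS mice at the same time. The median log2 fold change of the axoneme genes was then 0.56, and edgeR called 7 of them higher (1.76% of all genes) and 0 lower (0.519%), with 50 higher at an unadjusted p under 0.05 (9.93%). DESeq2 called 20 without s6 (2.82% of all genes). The 7 were Cfap43, Cfap45, Cfap52, Dnaaf1, Dnaic1, Rsph1 and Tppp3. By role, the median without s6 was 0.31 for outer arm heavy chain genes, 0.49 for inner arm heavy chain genes, 0.68 for intermediate and light chain genes and 0.48 for assembly factor genes. It was 0.67 for radial spoke genes, 0.67 for the nexin-dynein regulatory complex, 0.55 for the central apparatus, 0.68 for inner arm tethers, 0.50 for tektins and 0.66 for doublet lumen genes. For the 8 Cfap genes without an assigned role it was 0.57. The outer arm heavy chain genes thus had the lowest median without s6 as well as with it. Leaving out PBS library s1 gave 9 calls (2.08% of all genes were called higher) and a median of 0.91. No axoneme gene was called without s2, s11, s16, s4, s14 or s18. Over all genes, those fits called 163, 71, 160, 48, 78 and 47 higher in that order, of 12377 to 12540 tested. With so few calls over all genes, 0 of 70 is not a result about the axoneme genes. Without both s1 and s2 there were 18 calls (4.31% of all genes), and without s6, s11 and s16 there were 4 (1.03%). In each fit with 1 library left out, 69 of the 70 were positive.

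**Figure D2:**
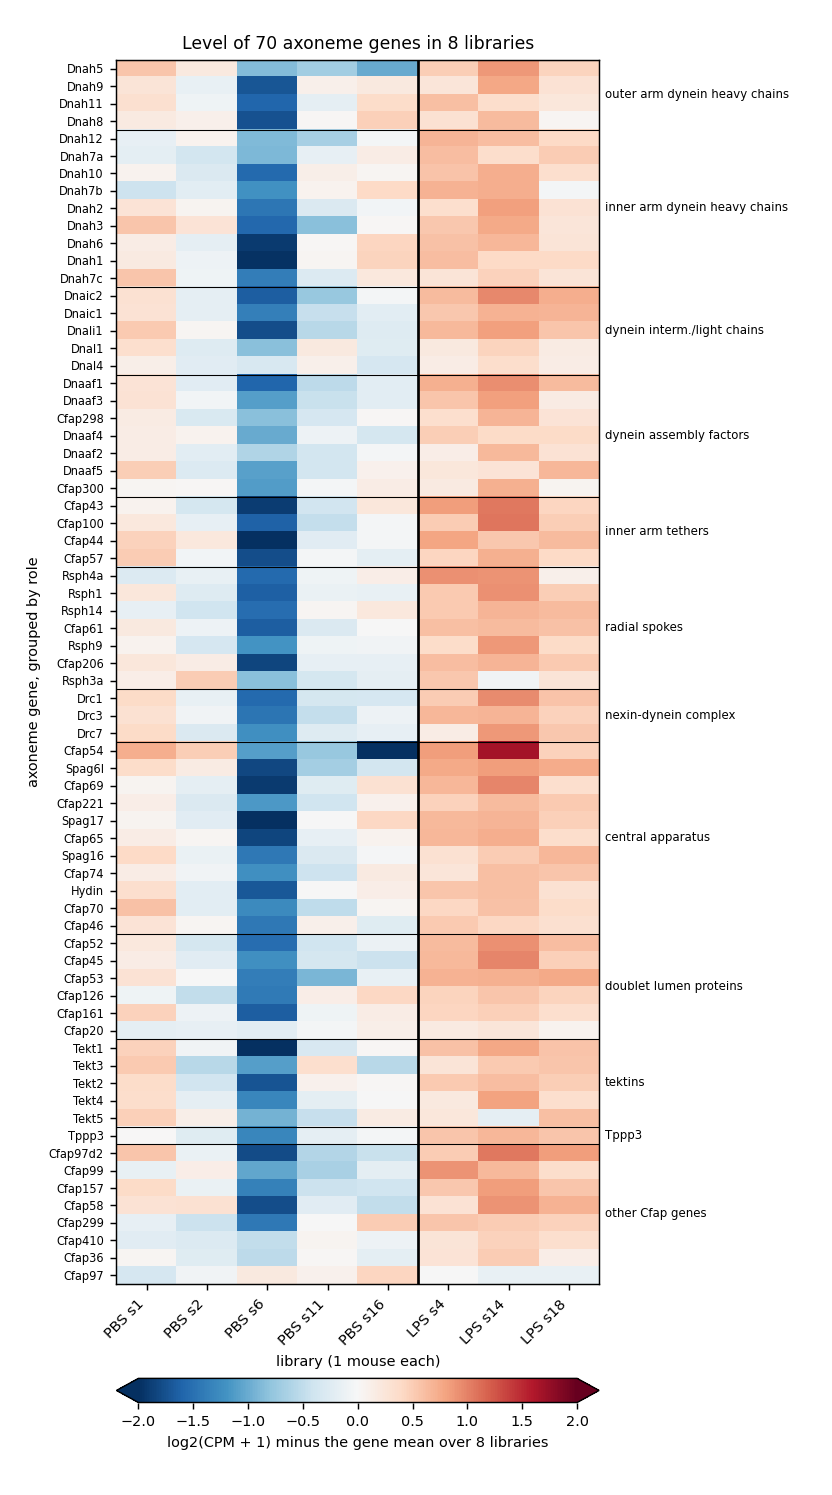
Level of each axoneme gene in each of the 8 libraries as log2 of CPM, with a pseudocount of 1, minus the mean of the gene over the 8 libraries, with genes grouped by role and colours that end at 2 in either direction. PBS library s6 is the low (blue) column for 66 of the 70 genes, and the 3 LPS libraries are high (red) for most.

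Relative to the mean of PBS libraries s1, s2, s11 and s16, the median axoneme gene was at 0.27, -0.10, -0.21 and 0.04 in these libraries on the log2 scale (pseudocount of 1 CPM), at -1.40 in s6, and at 0.56, 0.75 and 0.49 in s4, s14 and s18. The distance from s6 to the other PBS libraries thus exceeded the distance from those to the LPS libraries. LPS library s14 was the highest of the LPS libraries for 53 of the 70 genes, and s1 was the highest of the PBS libraries for 47.

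The first role is that of the structures inside the doublets and along their walls. Cfap45, Cfap52 and Cfap53 encode proteins of the lumen of the doublet microtubule. Cfap45 (chromosome 1, 172521130 to 172545870, plus strand, RefSeq on GRCm38) was at 107, 82.2, 40.7, 75.7 and 71.2 CPM in PBS libraries s1, s2, s6, s11 and s16, and at 151, 191 and 135 CPM in LPS libraries s4, s14 and s18. All LPS libraries were above all PBS libraries, and s6 was the lowest and s14 the highest. Its log2 fold change was 1.07 (SE 0.24, n = 5 and 3), with an adjusted p of 0.043 in the quasi-likelihood test of edgeR, which is the test behind each edgeR adjusted p given here. The adjusted p was 0.0030 with DESeq2 and 0.050 with limma-voom, just outside the threshold. With 1 library left out it was 0.020 without s1 and 0.027 without s6, but the call ended without s2 (0.068), s11 (0.12), s16 (0.065), s4 (0.13), s14 (0.22) or s18 (0.097), while the log2 fold change stayed between 0.91 and 1.23.

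Cfap52 was at 83.1, 55.8, 24.3, 54.0 and 65.5 CPM in the PBS libraries, in the same order, and at 112, 136 and 110 CPM in the LPS libraries. The groups did not overlap, and the log2 fold change was 1.07 (SE 0.27, edgeR adjusted p = 0.074). The adjusted p was 0.014 with DESeq2 and 0.027 from edgeR without s6. Cfap53, which is required for the left-right axis of the body, stood at 36.3 ± 15.8 CPM (SD, n = 5) in PBS and 75.3 ± 2.04 CPM (SD, n = 3) in LPS mice, with a log2 fold change of 1.04 (SE 0.29, edgeR adjusted p = 0.095). Its LPS libraries lay closer together than its PBS libraries, and above all of them. Cfap126 was at 254 ± 105 CPM (SD, n = 5) in PBS and 401 ± 18.5 CPM (SD, n = 3) in LPS mice, also with no overlap (log2 fold change 0.66, SE 0.30, edgeR adjusted p = 0.28). Cfap20 differed least of the 6 genes of this role, at 193 ± 18.9 CPM (SD, n = 5) in PBS and 231 ± 12.97 CPM (SD, n = 3), and its groups overlapped. Over the role the median log2 fold change was 0.85, and 4 of 6 genes had no overlap between the groups (8.52% of all genes).

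Tektins form filaments inside the doublet. Tekt1 was at 216, 149, 38.3, 125 and 160 CPM in the PBS libraries and at 236, 270.2 and 232 CPM in the LPS libraries. All LPS libraries were again above all PBS libraries, although s1 was close to them. With s6 far below, its log2 fold change was 0.84 (SE 0.36, edgeR adjusted p = 0.25). Of the 5 tektin genes, 0 passed after adjustment by edgeR or DESeq2 (1.46% and 2.91% of all genes were called higher). With so few genes, 0 is near those shares. In edgeR 3 were higher at an unadjusted p under 0.05 (10.4% of all genes). Tekt2 and Tekt4 had log2 fold changes of 0.73 (SE 0.32) and 0.64 (SE 0.28). Tekt3 and Tekt5 had means of 1.62 to 4.27 CPM in the groups, a few UMIs per library, and their groups overlapped.

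The tubulin-binding protein encoded by Tppp3 is widely used to mark ciliated airway cells. Tppp3 (chromosome 8, 105467492 to 105471422, minus strand) was at 1609, 1366, 649, 1414 and 1572 CPM in PBS libraries s1, s2, s6, s11 and s16, and at 2361, 2550 and 2351 CPM in LPS libraries s4, s14 and s18. The LPS libraries were close to each other and above every PBS library, and s6 was far below the other PBS libraries. Its log2 fold change was 0.87 (SE 0.25, edgeR adjusted p = 0.099), and 0.70 with an adjusted p of 0.036 without s6. DESeq2 gave an adjusted p of 0.022.

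**Figure D3:**
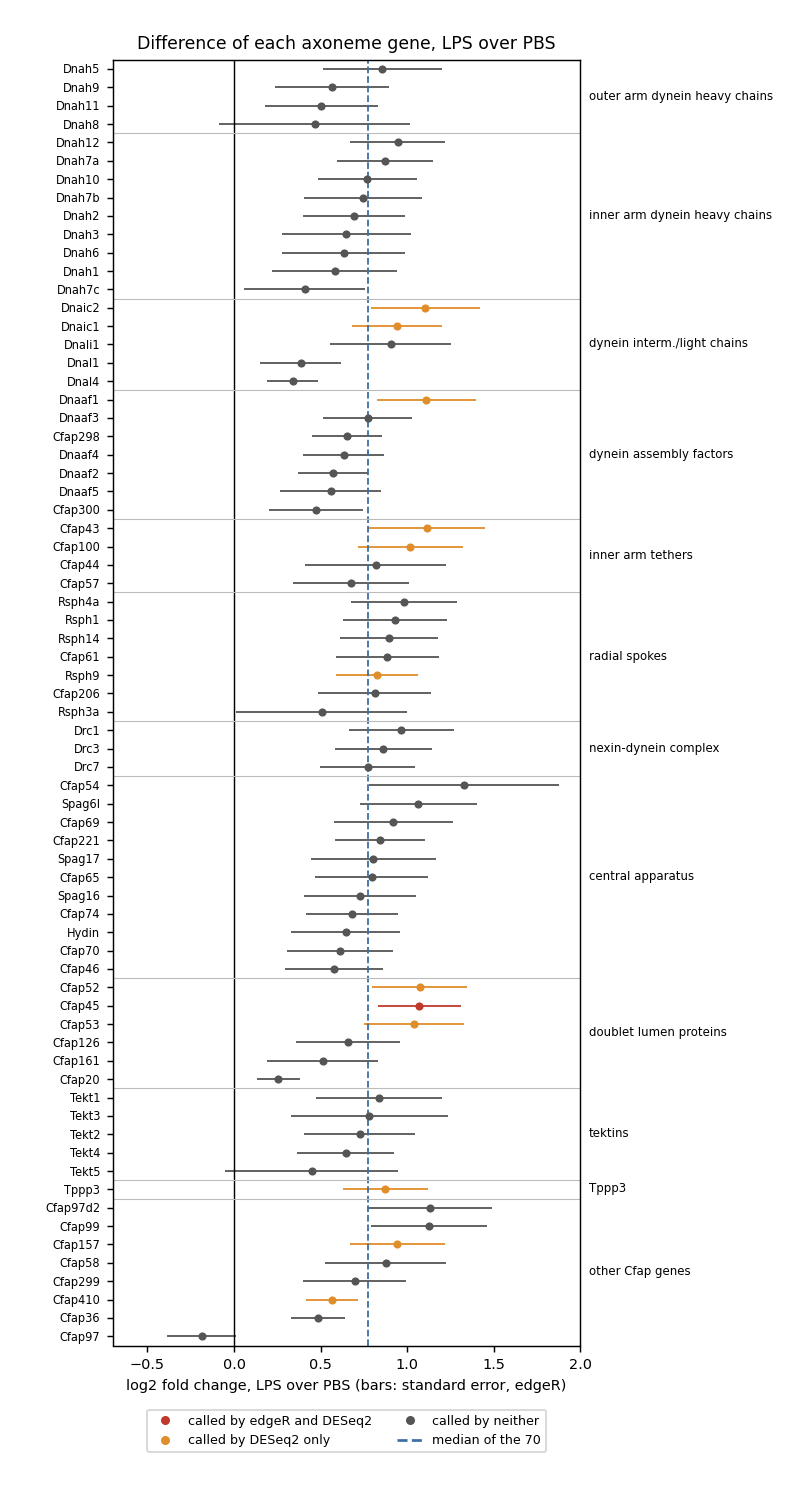
Log2 fold change of LPS over PBS of each axoneme gene with its standard error, from edgeR, grouped by role, with genes called by edgeR or DESeq2 marked. All but Cfap97 at -0.19 lie above 0, and Cfap54 at 1.33 is the highest, with a standard error of 0.55.

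The dynein motors divide into heavy chains, which hold the motor domain, and smaller chains that attach it to the doublet. Dnaic1 and Dnaic2 encode the intermediate chains of the outer arm, and loss of either causes primary ciliary dyskinesia in people. Dnaic2 was at 93.6, 66.4, 23.5, 44.4 and 73.6 CPM in the PBS libraries and at 118, 149 and 125 CPM in the LPS libraries. The LPS libraries were above all PBS libraries, and the PBS libraries spread over a wider range than the LPS libraries did. The log2 fold change of Dnaic2 was 1.11 (SE 0.31, edgeR adjusted p = 0.10, 0.030 with DESeq2). Dnaic1 had 59.5, 42.9, 18.3, 35.2 and 42.1 CPM in PBS and 71.6, 79.1 and 79.0 CPM in LPS libraries, likewise with no overlap. Its log2 fold change was 0.94 (SE 0.26, edgeR adjusted p = 0.093) and passed without s6 (0.76, adjusted p = 0.047). Dnali1, an inner arm light chain gene, and Dnal4 and Dnal1, which encode light chains, had log2 fold changes of 0.91, 0.34 and 0.38 (0.24 without s6 for Dnal1), and none of them passed in edgeR or DESeq2.

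The heavy chain genes had log2 fold changes of 0.41 to 0.94, with standard errors of 0.28 to 0.55. Dnah5 encodes an outer arm heavy chain that is often mutated in primary ciliary dyskinesia. Dnah5 was at 19.8, 15.2, 6.78, 7.72 and 6.06 CPM in the PBS libraries and at 19.0, 24.9 and 18.2 CPM in the LPS libraries. PBS library s1 was above s4 and s18, so the groups overlapped, and PBS libraries s6, s11 and s16 were lower than s1 and s2. Dnah5 had a log2 fold change of 0.86 (SE 0.35, edgeR adjusted p = 0.22). Dnah9 and Dnah11, the other outer arm heavy chain genes of the airway, had log2 fold changes of 0.57 (SE 0.33) and 0.50 (SE 0.33), and their groups overlapped as well. Without s6 these values were 0.34 and 0.28. Dnah8 had 0 UMIs in s6 and a mean of 2.28 CPM in PBS mice. For the 4 outer arm heavy chain genes the median log2 fold change was 0.54 (0.31 without s6), with 0 of 4 free of overlap. With so few genes, 0 is near the share of 8.52% over all genes.

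Among the 9 inner arm heavy chain genes the median was 0.69, and 4 had no overlap (8.52% of all genes). Dnah10 was at 74.5, 58.1, 23.5, 77.2 and 73.2 CPM in the PBS libraries and 106, 118 and 89.6 CPM in the LPS libraries. Apart from s6 the PBS libraries of Dnah10 were close together, and all LPS libraries were above them. Its log2 fold change was 0.77 (SE 0.29, edgeR adjusted p = 0.18) and 0.56 without s6 (adjusted p = 0.082). Dnah6 stood at 76.2 ± 33.8 CPM (SD, n = 5) in PBS and 118 ± 17.0 CPM (SD, n = 3) in LPS mice, with s16 above s18, and its log2 fold change was 0.63 (0.39 without s6). Dnah12 had the smallest p of these genes, with 5.31 ± 1.70 CPM (SD, n = 5) in PBS and 10.4 ± 1.15 CPM (SD, n = 3) in LPS mice (log2 fold change 0.94, SE 0.28, edgeR adjusted p = 0.11). Dnah7a, Dnah7b and Dnah7c are near-identical copies, and because reads had to map uniquely their counts may be divided between them or lost. Their log2 fold changes were 0.87, 0.75 and 0.41 (0.19 without s6 for Dnah7c), and none passed in edgeR or DESeq2.

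Before dynein arms reach the cilium they are put together in the cytoplasm with the help of dedicated assembly factors. Dnaaf1, one of these factors, was at 61.9, 43.5, 16.4, 35.2 and 44.1 CPM in the PBS libraries and at 84.1, 98.7 and 79.6 CPM in the LPS libraries. No LPS library fell in the PBS range. The log2 fold change of Dnaaf1 was 1.11 (SE 0.29, edgeR adjusted p = 0.076), DESeq2 gave an adjusted p of 0.016, and without s6 it was 0.91 (adjusted p = 0.031 from edgeR). Dnaaf1 shares exon bases in the last 1000 bases before its 3′ end with Taf1c on the other strand, as do Dnaic1 with Enho, Dnali1 with Gnl2, Dnal1 with Pnma1, Dnah11 with Cdca7l, Spag17 with Wdr3 and Cfap100 with Zxdc. The sources used here do not say whether the counting used strand, so the counts of these genes may hold reads of their partners. Dnaaf3 and Cfap298, which are needed for dynein arms as well, had log2 fold changes of 0.77 (SE 0.26) and 0.65 (SE 0.20). The median log2 fold change of the 7 assembly factor genes was 0.63, and 3 had no overlap (8.52% of all genes). Dnaaf2, with 20.95 ± 4.37 CPM (SD, n = 5) in PBS and 31.4 ± 6.06 CPM (SD, n = 3) in LPS mice, was at 69.7% of the other PBS libraries in s6, its lowest library.

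Radial spokes carry signals from the central pair to the dynein arms. Rsph1, Rsph4a and Rsph9 encode parts of the spoke head. Rsph1 was at 329, 235, 89.7, 257 and 252 CPM in the PBS libraries and at 403, 532 and 395 CPM in the LPS libraries. The groups did not overlap, and s14 was the highest. The log2 fold change of Rsph1 was 0.93 (SE 0.30, edgeR adjusted p = 0.14), and it passed only narrowly without s6 (0.72, adjusted p = 0.049). Rsph9 had 184, 138, 76.2, 164 and 166 CPM in PBS and 226, 320 and 230 CPM in LPS libraries. This gene too had no overlap, with a log2 fold change of 0.83 (SE 0.24, edgeR adjusted p = 0.11, 0.041 with DESeq2). Rsph14 was at 22.5 ± 8.76 CPM (SD, n = 5) in PBS and 41.8 ± 2.37 CPM (SD, n = 3) in LPS mice (log2 fold change 0.89, SE 0.28, edgeR adjusted p = 0.13). Rsph4a had 38.5 CPM in LPS library s18, below 39.2 CPM in PBS library s16. Of the 7 radial spoke genes 5 had no overlap (8.52% of all genes), and the median was 0.89.

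Neighbouring doublets are linked by the nexin-dynein regulatory complex, of which Drc1, Drc3 and Drc7 are subunits. Drc1 was at 141, 96.4, 35.9, 83.9 and 85.3 CPM in the PBS libraries and 153, 207 and 160.1 CPM in the LPS libraries. The LPS libraries were higher, although s1 was close to s4. The log2 fold changes of Drc1, Drc3 and Drc7 were 0.96, 0.86 and 0.77, and none passed in edgeR (edgeR adjusted p = 0.13, 0.14 and 0.17) or DESeq2. Inner arms are held and regulated by a further group of proteins, and Cfap43 and Cfap44 are related to proteins that tether an inner arm in ciliates and algae. Cfap43 was at 78.3, 58.4, 19.1, 56.9 and 87.3 CPM in PBS and at 134, 155 and 101 CPM in LPS libraries. No overlap was seen, and the log2 fold change was 1.11 (SE 0.34, edgeR adjusted p = 0.12, 0.047 with DESeq2, and 0.043 from edgeR without s6). Cfap100 had 113, 87.1, 31.1, 69.5 and 94.2 CPM in PBS and 139, 205 and 137 CPM in LPS libraries, with no overlap. Cfap100 had a log2 fold change of 1.02 (SE 0.31, edgeR adjusted p = 0.11, 0.044 with DESeq2). Cfap44 had the lowest share in s6 among genes with a UMI there, at 13.1% of the other PBS libraries.

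The central apparatus is the pair of single microtubules and its projections. Hydin, whose loss causes hydrocephalus in mice, was at 77.9, 52.9, 18.3, 61.3 and 67.5 CPM in the PBS libraries and 90.6, 94.1 and 76.5 CPM in the LPS libraries. PBS library s1 was just above LPS library s18, so the groups overlapped. Hydin had a log2 fold change of 0.64 (SE 0.32, edgeR adjusted p = 0.31), and 0.42 without s6. Spag6l, a central apparatus gene with a close relative, was at 59.5, 51.9, 12.4, 28.5 and 35.6 CPM in PBS and 78.1, 82.6 and 77.4 CPM in LPS libraries. All LPS libraries of Spag6l were above all PBS libraries, with a log2 fold change of 1.06 (SE 0.34, edgeR adjusted p = 0.13). Spag16 and Spag17 had log2 fold changes of 0.73 (SE 0.32) and 0.81 (SE 0.36).

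Cfap54 had the highest log2 fold change of the 70 genes. Cfap54 was at 13.9, 11.6, 3.19, 4.34 and 0.809 CPM in the PBS libraries and at 15.1, 27.7 and 11.3 CPM in the LPS libraries. PBS libraries s1 and s2 were above LPS library s18, and s16 was lower than s6. The log2 fold change of Cfap54, 1.33 (SE 0.55), missed the threshold (edgeR adjusted p = 0.23). Cfap221, Cfap65 and Cfap69 had no overlap between the groups, and log2 fold changes of 0.84 (SE 0.26), 0.80 (SE 0.33) and 0.92 (SE 0.34). Over the 11 central apparatus genes the median was 0.80, and 7 had no overlap (8.52% of all genes).

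The remaining 8 genes carry a Cfap symbol, and no role was assigned to them here. Cfap410 had 30.6, 29.7, 25.5, 37.6 and 33.6 CPM in PBS and 43.5, 50.04 and 45.8 CPM in LPS libraries. The PBS libraries of Cfap410 were close together, with s6 the lowest, and all LPS libraries were above them. Its log2 fold change was 0.57 (SE 0.15, edgeR adjusted p = 0.086, 0.045 with DESeq2). Cfap157 was at 37.9 ± 15.6 CPM (SD, n = 5) in PBS and 73.4 ± 8.85 CPM (SD, n = 3) in LPS mice, with no overlap (log2 fold change 0.94, SE 0.28, edgeR adjusted p = 0.11, 0.044 with DESeq2). Cfap99, at 7.34 CPM or less on average, had a log2 fold change of 1.13 (SE 0.33, edgeR adjusted p = 0.11). Cfap97 was the single gene with a negative log2 fold change, -0.19 (SE 0.20, edgeR adjusted p = 0.67). Its levels were 14.6, 17.7, 21.5, 19.8 and 25.5 CPM in the PBS libraries and 18.5, 16.8 and 16.7 CPM in the LPS libraries. The groups of Cfap97 overlapped, and s6 was at 111% of the other PBS libraries.

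**Figure D4:**
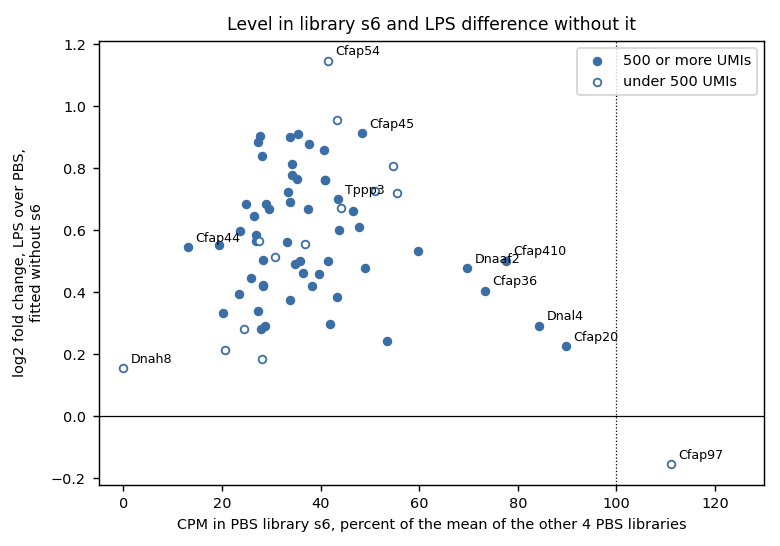
Level in PBS library s6 as a percent of the mean of the other 4 PBS libraries, against the log2 fold change of LPS over PBS without s6, for the axoneme genes. Most genes lie near the median of 35.0%, and Cfap97 (111%), Cfap20 (89.7%) and Dnal4 (84.3%) lie far to the right at low fold changes.

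The genes nearest in s6 to the other PBS libraries came from several roles. They were Cfap97, Cfap20, Dnal4, Cfap410, Cfap36 and Dnaaf2, at 111% down to 69.7% of the other PBS libraries, and Cfap298 followed at 59.7%. Cfap20, Cfap410, Cfap36 and Dnaaf2 were nevertheless at their lowest level in s6. Their log2 fold changes without s6 were -0.16, 0.23, 0.29, 0.50, 0.40 and 0.48 in that order. Over the 69 genes with a UMI in s6, the log2 share in s6 and the log2 fold change without s6 had a Pearson correlation of -0.11 and a Spearman correlation of 0.07. With at least 500 UMIs (56 genes) the values were -0.16 and -0.09. These points share libraries, including the other PBS libraries that enter both measures, and the correlations are a description only.

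The start sites of these genes were read for the X-box, the binding motif of RFX transcription factors, which are known regulators of cilia genes. The RefSeq promoter windows of GRCm38.p6, the assembly of mm10, run from 250 bases before to 50 after the start, and 59 of the 70 genes had 66 windows. The X-box, an inverted repeat that begins with GTT and ends with AAC, was searched on both strands. It was in 8 of 66 windows (12.1%), against 0.804% of all 32851 windows. The half-site GTTGCC, which can overlap it, was in 40.9% of the windows against 12.5%. The forkhead motif TGTTTAC was in 4.55% against 3.65%, and CCAAT in 39.4% against 37.4%. The motifs were chosen after a first look at the windows, and a match is a description, not a bound site. The 6 matches before the transcript start that the window was built on are shown, so that the sequences behind these shares can be read. The RefSeq extent of a gene can begin further upstream than that start. Measured from the outermost start, the matches of Cfap45 and Cfap298 lay before the gene, those of Spag16 and Hydin spanned its first base, and those of Cfap44 and Dnaaf2 lay inside it. Flanking bases are given for Cfap45 and Cfap298 only. Each is written 5′ to 3′ on the strand of the gene, and capitals mark the bases that match the motif on this strand or on the other.
Spag16, chr1:69826867-69826880, + strand: GTTGCCGTAGTAAC
Cfap45, chr1:172521091-172521129, + strand: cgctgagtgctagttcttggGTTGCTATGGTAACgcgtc
Hydin, chr8:110266956-110266969, + strand: GTTGCTGTGGCAAC
Dnaaf2, chr12:69198433-69198446, - strand: GTTACTATGGCAAC
Cfap44, chr16:44394772-44394785, + strand: GTTGCTATGGCAAC
Cfap298, chr16:90935004-90935057, - strand: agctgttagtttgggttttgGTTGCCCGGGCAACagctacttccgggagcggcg
Cfap45, the gene called by edgeR, was thus among the genes with a match, 6 to 19 bases before its start. Hydin and Spag16, which hold one as well, were not called in edgeR or DESeq2, and Dnaaf2, Cfap44 and Cfap298 were not either. The remaining genes of the 8 with a match were not set beside their calls here. Cfap53, Cfap157, Dnaaf1 and Tppp3, which DESeq2 called, had no window to search.

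Cilia genes outside the naming rule were also mostly higher in LPS mice. Their medians were lower without s6 and are given both ways. Of 46 other axoneme genes listed, 44 were tested, and all of these had positive log2 fold changes (47.3% of all genes). Their median was 0.77 (0.59 without s6), and s6 was the lowest library for 42 (19.8% of all genes). EdgeR called 2 of the 44 higher (1.46% of all genes). These were Ttc25, which encodes a docking protein of the outer arm, and Ak7, an adenylate kinase of the axoneme. Their log2 fold changes were 1.10 (SE 0.24, edgeR adjusted p = 0.041) and 1.05 (SE 0.24, adjusted p = 0.049). Gas8, a subunit of the nexin-dynein regulatory complex, followed with 0.88 (SE 0.21, edgeR adjusted p = 0.057). The calls of Ttc25 and Ak7 ended with some library left out, up to an adjusted p of 0.16 for Ttc25 and 0.24 for Ak7. The 27 genes of intraflagellar transport, which carries axoneme parts up the cilium, and of the BBSome had a median of 0.50 (0.36 without s6). Of the 27, 24 were positive (47.3% of all genes) and 15 were higher at an unadjusted p under 0.05 in edgeR (10.4%). EdgeR called 0 of them higher (1.46% of all genes) and DESeq2 called 2 (2.91%). With 27 genes, 0 is near the share over all genes. Ift140 had the smallest p among Ift140, Bbs5 and Bbs1, with a log2 fold change of 0.88 (SE 0.21, edgeR adjusted p = 0.060).

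All 7 tested regulators of multiciliated cell fate had positive log2 fold changes (47.3% of all genes). Their median was 0.90 (0.76 without s6), and the PBS libraries differed among themselves. Foxj1, the transcription factor that turns on motile cilia genes, was at 802, 592, 183, 336 and 372 CPM in the PBS libraries and at 817, 1014 and 849 CPM in the LPS libraries. Its lowest LPS library was just above s1, whereas s6, s11 and s16 were far below s1 and s2. The log2 fold change of Foxj1 was 0.96 (SE 0.35, edgeR adjusted p = 0.18). Deup1 and Trp73 had log2 fold changes of 1.00 (SE 0.33) and 0.85 (SE 0.29). Myb, a regulator of early multiciliated cells, had 22.3, 18.1, 5.58, 9.65 and 7.28 CPM in PBS and 27.4, 39.9 and 30.5 CPM in LPS libraries. Its groups did not overlap, and it was called by DESeq2 (adjusted p = 0.019) but not by edgeR (log2 fold change 1.34, SE 0.36, adjusted p = 0.086).

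Marker lists of this and other cell types differed in how they lay between the groups. The 14 ciliated cell markers outside the axoneme had summed levels of 864 to 2956 CPM in PBS and 3488 to 4321 CPM in LPS mice. Their median log2 fold change was 0.73 (0.53 without s6). Among these, Ccdc78, Cdhr3 and Tctex1d4 had log2 fold changes of 1.16 (SE 0.33), 0.88 (SE 0.29) and 0.89 (SE 0.29). Alveolar type II markers had a summed level of 153376 to 226083 CPM in PBS and 134885 to 139831 CPM in LPS mice. Every LPS library was thus below every PBS library for this sum. PBS libraries s1 and s2, at 153376 and 154924 CPM, were nearer to the LPS libraries than to s6, s11 and s16, at 216848 to 226083 CPM. Singly, 3 of the 12 markers had every LPS library below every PBS library (5.86% of all genes). Of the 12 markers, 11 had a negative log2 fold change (median -0.32) and 1 a positive one, against 47.3% of all genes positive. EdgeR called 0 of the 12 lower (0.569% of all genes), and 2 were lower at an unadjusted p under 0.05 (7.64%). DESeq2 called 1 lower (1.5%). With 12 genes, 0 called by edgeR is near the share over all genes. Club cell markers ranged from 21816 to 73369 CPM in PBS and from 26663 to 49398 CPM in LPS mice, so that these groups overlapped. Of 22 macrophage markers tested, 11 were called higher (1.46% of all genes) and 1 lower (0.569%) by edgeR. The 22 markers summed to 5317 to 9708 CPM in PBS and 5448 to 6314 CPM in LPS mice, which overlapped. Without Cd74 and Lyz1, which take most of that sum and were left out after their values were seen, the ranges were 502 to 888 CPM in PBS and 1474 to 2685 CPM in LPS mice and did not overlap. The 2 mesothelial markers tested summed to 183 to 484 CPM in PBS, with s6 the lowest, and to 526 to 658 CPM in LPS mice. Both were higher at an unadjusted p under 0.05 (10.4% of all genes) but not after adjustment by edgeR. The part of these shifts in the levels of the axoneme genes was not tested.

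**Figure D5:**
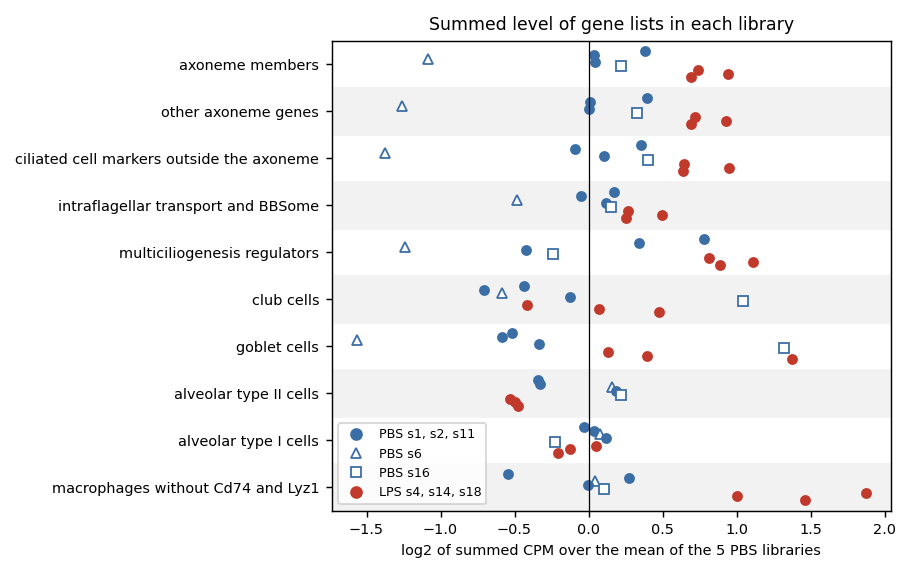
Summed CPM of the axoneme genes and of marker lists in each of the 8 libraries, as log2 of the ratio to the mean of the 5 PBS libraries, with s6 (triangles) and s16 (squares) marked among the PBS libraries. The axoneme genes range from 2353 to 6503 CPM in PBS and from 8043 to 9579 CPM in LPS mice, and s6 is the lowest library for them and for the ciliated cell markers.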

How the data were processed

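Bulk MARS-seq libraries of sorted lung epithelial cells from 5 PBS and 3 LPS mice were analysed. The authors used the User-friendly Transcriptome Analysis Pipeline (UTAP). It counted only unique alignments to the 3′ part of RefSeq genes (mm10, annotation release 109), and the authors deposited raw UMI counts per gene and library, which were used for every value. No aligner is named in the sources used here. Another 16 columns of values per library, and the authors' DESeq2 fold changes and p-values, were not used. Column names give the group and an s-number found in no sample label, so libraries carry those numbers.

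TMM normalization and the quasi-likelihood test of edgeR 4.0.16 (R 4.3.3) were applied to genes with at least 30 UMIs over the 8 libraries. P-values for LPS against PBS were adjusted by Benjamini-Hochberg over all 12661 genes, and calls need a value under 0.05 and a fold above 1.25. A standard error (SE) is the size of the log2 fold change over the root of F. P-values measure the spread between these mice. No pair of libraries within a group agreed within sampling noise. PBS libraries s1 and s2 were the closest (chi-square per degree of freedom 2.99), against 7.81 to 23.8 for the other pairs within a group. Why s1 and s2 were closer was not tested. The scripts were tested on simulated data. Named are the axoneme genes called by edgeR or DESeq2, those with a negative or the most extreme log2 fold change, the 3 with the smallest p and the one with the highest mean of each role, those just inside and outside the UMI limit, and, in each other cilium list, the 3 genes with the smallest p and Foxj1. Other genes named, such as Hydin and Cfap20, were chosen after their values were seen. The members and gene lists were chosen with earlier results of these data known. Alternatives were DESeq2 1.42.0, limma-voom (limma 3.58.1), other normalization and filters, and each library left out. In addition, 3 fits without sets of PBS libraries were chosen after seeing the data. Promoter sequences are those of RefSeq on GRCm38.p6, where Cfap157, Cfap299, Cfap53, Cfap54, Cfap65, Cfap97, Dnaaf1, Dnah3, Rsph1, Rsph4a and Tppp3 had no entry. A further overlap of an axoneme gene with a neighbouring gene is not reported here.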

Additional observations from a re-analysis of the deposited data

Results flagged for a closer look

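Among 102 sets of 5 PBS values (genes and summed lists), 7 had a library whose gap to its nearest neighbour was over 0.71 of the range. Chance gives about 1 in 20, and 7 of 102 is close to that. The sets also share mice and genes, so the count is a description only. In 5 of the 7 the library was s6, which was low. For Cfap300, an assembly factor gene, s6 was at 8.37 CPM against 18.8 to 21.4 CPM (gap 0.800 of the range). For Cfap65, a central apparatus gene, it was at 35.5 CPM against 115 to 144 CPM (0.738). Tppp3 was at 649 CPM against 1366 to 1609 CPM (0.746), which is also the value of its own class as a sum. The inner arm dynein heavy chain genes summed to 82.9 CPM in s6 against 249.96 to 317 CPM (0.712). In the other 2 sets PBS library s16 was high, with 73369 CPM of club cell markers against 21816 to 32654 CPM (0.790) and 1540 CPM of goblet cell markers against 209 to 489 CPM (0.790). Library s16 was within the range of the other PBS libraries for the summed axoneme genes, at 5810 CPM.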

How the results depend on the processing

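No paired analysis was possible because the columns of the count table carry none of the replicate numbers in the labels. Of the 70 axoneme genes, 69 were positive in every fit that tested all 70 but one. That fit, without PBS libraries s6, s11 and s16, gave Cfap97 a log2 fold change of 0.11 (edgeR adjusted p = 0.84) and turned Rsph3a and Tekt5 below 0 (lowest -0.06). The count of axoneme genes called higher depended on the test and on single libraries. It was 12 with DESeq2, 0 with limma-voom, 0 with robust dispersion, 0 to 9 with each library left out, 18 without s1 and s2, 4 without s6, s11 and s16, and 20 with DESeq2 without s6. Genes at an unadjusted p under 0.05 numbered 25 to 55 with each library left out, fewest without s14, and the median log2 fold change ran from 0.56 to 0.91. Over all genes, the numbers higher and lower were 368 and 190 with DESeq2, 175 and 66 with limma-voom, and 176 and 73 with robust dispersion. They were 47 to 259 and 12 to 95 with each library left out, and 527 and 381 without s1 and s2. They were 353 and 149 with DESeq2 without s6, and 125 and 47 without s6, s11 and s16. Depth limits Cfap47, Cfap77, Rsph3b, Rsph3a, Tekt3, Tekt5 and Dnah8, which had few UMIs per library.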
